A study of Mus musculus with 69 samples.

Results

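The Zfp-named genes are the mouse zinc finger protein genes whose symbol is Zfp followed by a number. They were taken from the count table by that name and by a level rule, 10 or more counts in 7 or more libraries. Of 194 such names 190 passed, among the 9930 complete gene records held, which cover chromosomes 1 to 7 and the start of chromosome 8. The 4 that did not pass were Zfp345, Zfp352, Zfp683 and Zfp819. At the edge of the rule, Zfp819 reached 10 counts in 2 libraries, whereas Zfp985 did so in 9 libraries and Zfp648 in 15. The data are RNA-seq counts of hippocampal tissue from 69 male mice, each with its own library. Mice were Cdh13 knockout (ko) or wildtype (wt), Cdh13 being the gene of the cell adhesion protein cadherin 13. They were reared as controls (Ctr) that were only handled, or by maternal separation (MS), in which pups spent 3 h daily away from the dam between postnatal days 1 and 14. Brains were taken at weaning on P22 or in adulthood on P66, from 2 breeding rounds called cohorts. At P22 there were 8 Ctr wt, 11 MS wt, 9 Ctr ko and 10 MS ko mice, and at P66 there were 7, 10, 7 and 7. The knockout is that of the labels, which give neither the deleted part of the gene nor a cell type, and the genotype could not be checked here because Cdh13 was not analysed here. The labels name no litters. Mice were therefore treated as independent; where littermates are alike, the p-values for rearing come out too small.

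Most Zfp-named genes encode proteins with arrays of C2H2 zinc fingers, small folds that hold a zinc ion and read DNA a few bases at a time. Many also carry a KRAB domain, which binds the co-repressor TRIM28 (also called KAP1). TRIM28 in turn recruits the histone methyltransferase SETDB1 and HP1 proteins, and the bound DNA, often a transposable element or an imprinted region, is kept silent. KRAB zinc finger genes have multiplied by local duplication, so that near-copies lie side by side in clusters. In brain, TRIM28 and its partners restrain endogenous retroviruses and take part in the control of neuronal genes.

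The members were spread unevenly over the chromosomes. Chromosome 7 held 91, chromosome 4 held 28, chromosome 2 held 26, chromosome 5 held 18 and chromosome 6 held 17. Chromosomes 1 and 3 held 4 each and chromosome 8 held 2. All 190 had the same position in the GENCODE M21 annotation of GRCm38 as in the table. In the translated GENCODE transcripts a KRAB pattern was found in 101 members and not in 89. Such a pattern can miss a KRAB domain, so the 89 may include KRAB proteins. Zfp607b, for instance, had the pattern and Zfp607a did not. Members had a median of 10 C2H2 fingers and up to 36, in Zfp142, and 182 had at least 2. Zfp36, which encodes the mRNA decay factor tristetraprolin with fingers of another type, had none of this pattern, and neither did Zfp972. Runs of at least 5 members with gaps under 1 Mb formed 11 clusters with 117 members. The transcripts of the KRAB members were poor in G and C (median 43.1%) beside those of the other members (51.9%) and of all genes (49.04%).

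The chromosome 4 cluster (GRCm38, chromosome 4, 145510759 to 147848366) held 18 members, all with the KRAB pattern, from Zfp990 to Zfp933. Its transcripts had a median GC content of 36.1%, and in 11 of the 18 more than 50% of the 51-base words also occurred in another gene. The chromosome 2 cluster (174643534 to 178078476) held 10 members, Zfp831 and 9 with the KRAB pattern, and 6 of the 10 shared more than 50% of such words. How reads that match several of these copies were counted is not given in the sources used here, so single values within the 2 clusters are uncertain. In other respects, too, counts of overlapping genes are uncertain, because the strand setting is not given.

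Promoter windows of RefSeq (GRCm38.p6, 250 bases before to 50 after a gene start) were within 1000 bases of the table's gene start for 151 members. The sequences below are those of the members on which the results turn: Zfp46 and Zfp956, which differed with rearing, Zfp282 and Zfp663, which fell with age in every group outside these 2 clusters, and a pair of near-copies from each of the 2. Capitals mark the CCAAT box (CCAAT or ATTGG) and the GC box (GGGCGG or CCGCCC), searched on both strands. In the chromosome 4 pair the 2 motifs overlap.
Zfp46, first window (chr4:136284426-136284725, + strand): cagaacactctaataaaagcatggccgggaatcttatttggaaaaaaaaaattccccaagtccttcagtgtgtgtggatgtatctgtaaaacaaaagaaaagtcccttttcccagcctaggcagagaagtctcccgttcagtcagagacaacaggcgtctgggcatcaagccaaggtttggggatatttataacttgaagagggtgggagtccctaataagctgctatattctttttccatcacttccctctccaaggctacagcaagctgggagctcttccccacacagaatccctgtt
Zfp46, second window (chr4:136285817-136286116, + strand): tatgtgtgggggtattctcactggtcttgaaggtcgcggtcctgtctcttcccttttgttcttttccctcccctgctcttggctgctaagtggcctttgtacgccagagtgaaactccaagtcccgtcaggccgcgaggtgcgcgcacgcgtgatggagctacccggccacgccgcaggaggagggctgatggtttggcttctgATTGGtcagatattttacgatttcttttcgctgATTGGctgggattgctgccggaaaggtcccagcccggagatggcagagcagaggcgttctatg
Zfp956 (chr6:47953140-47953439, + strand): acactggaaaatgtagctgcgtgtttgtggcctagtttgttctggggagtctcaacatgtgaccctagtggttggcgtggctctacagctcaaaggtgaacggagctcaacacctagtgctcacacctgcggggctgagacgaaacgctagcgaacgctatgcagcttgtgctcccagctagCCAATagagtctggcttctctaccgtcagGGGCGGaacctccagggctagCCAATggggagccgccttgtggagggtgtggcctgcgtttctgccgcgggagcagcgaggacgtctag
Zfp282 (chr6:47877305-47877604, + strand): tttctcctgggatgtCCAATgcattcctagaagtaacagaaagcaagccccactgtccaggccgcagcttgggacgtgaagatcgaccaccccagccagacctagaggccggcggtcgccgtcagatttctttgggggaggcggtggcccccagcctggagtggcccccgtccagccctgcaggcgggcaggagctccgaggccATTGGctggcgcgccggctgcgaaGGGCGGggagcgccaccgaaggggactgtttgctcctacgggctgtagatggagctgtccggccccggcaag
Zfp663 (chr2:165368687-165368986, - strand): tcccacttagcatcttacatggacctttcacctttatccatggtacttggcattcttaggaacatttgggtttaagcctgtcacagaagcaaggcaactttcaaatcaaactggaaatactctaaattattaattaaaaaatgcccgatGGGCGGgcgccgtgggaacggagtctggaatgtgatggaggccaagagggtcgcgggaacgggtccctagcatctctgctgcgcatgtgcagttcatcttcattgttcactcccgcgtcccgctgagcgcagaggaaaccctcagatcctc
Zfp966 (chr2:175931051-175931350, - strand): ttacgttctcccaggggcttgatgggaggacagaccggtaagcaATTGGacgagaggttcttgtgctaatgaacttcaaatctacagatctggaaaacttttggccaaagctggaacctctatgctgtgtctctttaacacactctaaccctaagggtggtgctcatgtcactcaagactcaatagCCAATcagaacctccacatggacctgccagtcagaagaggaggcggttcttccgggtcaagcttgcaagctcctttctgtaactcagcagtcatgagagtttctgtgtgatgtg
Zfp970 (chr2:177464492-177464791, + strand): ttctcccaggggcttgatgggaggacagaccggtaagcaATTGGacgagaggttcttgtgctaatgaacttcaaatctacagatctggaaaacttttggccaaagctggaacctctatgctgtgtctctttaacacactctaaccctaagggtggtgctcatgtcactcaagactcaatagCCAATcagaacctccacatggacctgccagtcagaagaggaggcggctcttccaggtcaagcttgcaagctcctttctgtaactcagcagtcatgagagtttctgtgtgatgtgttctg
Zfp600 (chr4:146156577-146156876, + strand): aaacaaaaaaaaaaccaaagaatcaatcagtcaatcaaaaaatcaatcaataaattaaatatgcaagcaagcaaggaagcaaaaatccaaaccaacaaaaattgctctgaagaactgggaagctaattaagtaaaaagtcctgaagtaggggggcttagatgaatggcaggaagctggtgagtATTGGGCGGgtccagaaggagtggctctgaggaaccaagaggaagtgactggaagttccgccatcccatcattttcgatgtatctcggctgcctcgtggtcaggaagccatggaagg
Zfp979 (chr4:147642459-147642758, - strand): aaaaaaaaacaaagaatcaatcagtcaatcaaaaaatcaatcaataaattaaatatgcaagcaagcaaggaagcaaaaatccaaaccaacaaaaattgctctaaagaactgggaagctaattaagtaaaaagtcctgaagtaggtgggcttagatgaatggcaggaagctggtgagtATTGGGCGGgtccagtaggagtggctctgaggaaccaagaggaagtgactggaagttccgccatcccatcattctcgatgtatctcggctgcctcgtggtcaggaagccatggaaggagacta
The first Zfp46 window held none of these motifs. The second, which starts 1391 bases downstream, held 2 CCAAT boxes. CCAAT occurred in 77 of 168 members' windows (45.8%) and in 37.9% of 27025 genes' windows when the first listed window of each gene was used. GGGCGG occurred in 44.0% and 35.9%. In the chromosome 2 cluster all 8 windows held a CCAAT box and none a GC box, and pairs of them had a median identity of 86.8%. The windows of Zfp966 and Zfp967 were identical (100%), and that of Zfp970 matched Zfp966 at 97.7%. In the chromosome 4 cluster 9 of 10 windows held a CCAAT box and 7 a GC box, with a median identity of 81.7%; Zfp600 and Zfp979 matched at 96.3%. In the clusters of chromosome 7 that hold Zfp112 and Zfp788 pairs matched at 49.3 to 60.7% and at 48.7 to 85.3%. Matches are a description of these windows and show no binding.

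Library totals over the held part of the table lay between 11.3 and 16.4 M counts, and members took 0.791 to 1.01% of them. Levels are counts per M counts of the library (CPM), on library sizes scaled by TMM. Of the marker lists, 9 of 9 measured myelin genes were lower at P66 than at P22, and their summed level ranged from 2360 to 5705 CPM at P22 and from 1033 to 2516 CPM at P66. Neuron markers summed to 9296 to 12680 CPM at P22 and 9477 to 11824 CPM at P66. The sum of the 9 choroid plexus markers ranged from 107 to 768 CPM over the libraries, and 5 libraries stood more than 2 (log2) below the median of the choroid plexus score. No gene of the 11 lists that was in the table was at 0 in every library. In bulk tissue, fewer cells of a type and less RNA per cell cannot be told apart.

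Per length, the members' levels spanned 0.156 to 74.01 CPM per kb of merged exons, with a median of 7.77. The most abundant per length was Zfp981 of the chromosome 4 cluster, with a mean of 234 CPM. Next came Zfp106, an RNA-binding protein needed by motor neurons and muscle, at 52.98 CPM per kb and 553 CPM. The least abundant was Zfp985, also of the chromosome 4 cluster, at 0.447 CPM. Apart from Zfp981 and Zfp933 (45.5 CPM, 10.7 CPM per kb), the genes of the chromosome 4 cluster were below the members' median per length: the cluster's median was 0.642 CPM per kb, beside 14.6 in the chromosome 2 cluster and 7.98 in the members outside both.

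Age was the factor with the most calls. Averaged over the 4 groups of genotype and rearing, 72 of 190 members (37.9%) passed at an adjusted p under 0.05 (edgeR quasi-likelihood, Benjamini-Hochberg over 7131 genes), where 52% of all genes did. Higher at P66 were 44 members (23.2% of members, 26.2% of all genes) and lower were 28 (14.7% of members, 25.8% of all genes). The members' median log2 change was 0.04 and that of all genes 0.01. Their median absolute change was 0.07, beside 0.10 for all genes. Only 7 of the higher and 12 of the lower calls passed a fold of 1.2. Of the 101 members with the KRAB pattern, 22 were higher and 14 lower. Of the 89 in which it was not found, 22 were higher and 14 lower as well.

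**Figure D1:**
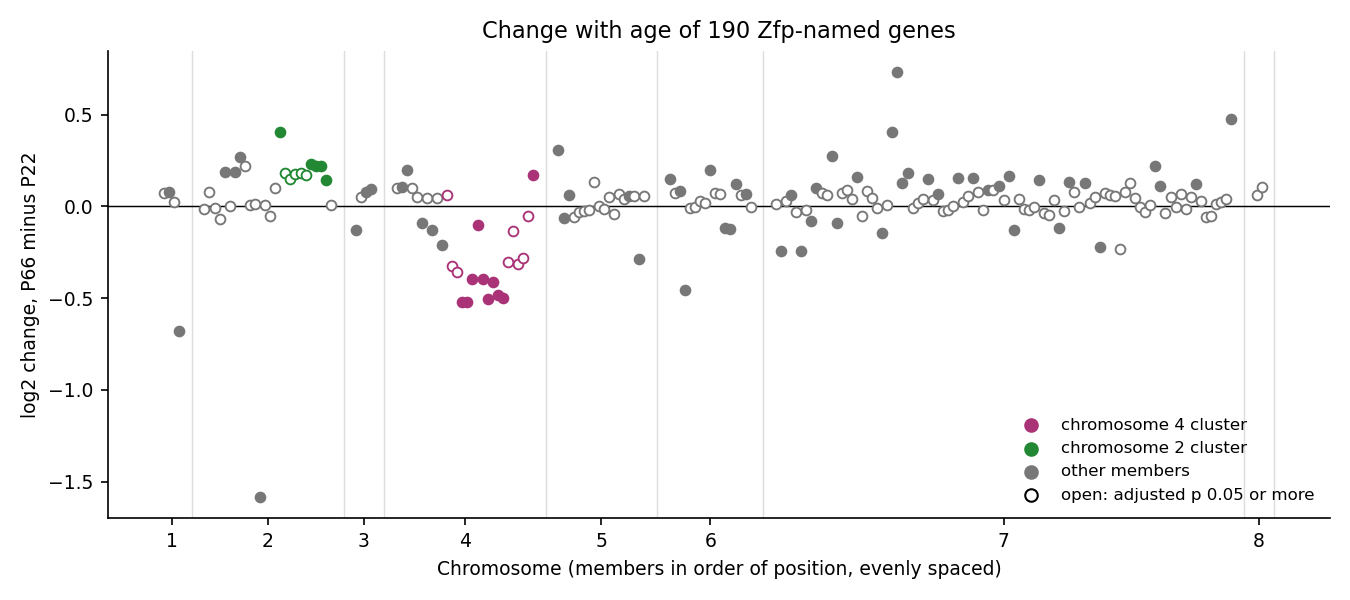
Log2 change from P22 to P66 of each of the 190 members (vertical axis), placed in order of position along the chromosomes (horizontal axis, evenly spaced); each point is 1 gene, filled where the adjusted p was under 0.05. Most points lie near 0, the chromosome 4 cluster lies mostly below it (median -0.34) and the chromosome 2 cluster above it (median 0.18).

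The clearest fall was that of Zfp282, the mouse form of a repressor first found by its binding to a viral promoter. At P22 its level was 62.9, 67.2 and 73.4 CPM (lowest, median, highest) in Ctr wt, 64.7, 67.8 and 70.8 in MS wt, 63.1, 66.2 and 79.7 in Ctr ko and 62.5, 69.6 and 76.5 in MS ko. At P66 it was 43.4, 47.2 and 56.4 in Ctr wt, 46.3, 48.0 and 55.1 in MS wt, 44.8, 51.4 and 54.1 in Ctr ko and 47.8, 50.9 and 58.5 in MS ko. The highest P66 library was below the lowest P22 library, and Zfp282 was the only member of which this held. The share of all genes whose ages did not overlap was not counted. Its log2 change was -0.46 (SE 0.0242, n = 38 and 31, adjusted p 1.02e-25 by edgeR), with -0.46, -0.46, -0.47 and -0.44 in Ctr wt, MS wt, Ctr ko and MS ko.

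Zfp663 had the widest ratio of the members, at a very low level. Its median was 0.863 CPM at P22 (range 0.139 to 1.42, n = 38) and 0.237 CPM at P66 (0.0738 to 0.578, n = 31). The ages overlap in a few libraries. The log2 change was -1.58 (SE 0.165, adjusted p 1.05e-12 by edgeR), that is 2.99-fold lower, and it was between -1.26 and -1.77 in the 4 groups. With a mean of 7.88 counts per library, counting error is a large part of each value. Zfp580 was the third member that passed as lower within each of the 4 groups, with medians of 46.6 CPM (38.3 to 60.96) and 41.01 CPM (34.4 to 48.2) and a log2 change of -0.24 (SE 0.0331, adjusted p 5.38e-09 by edgeR).

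Members that passed as higher at P66 within each of the 4 groups were Zfp941, Zfp831, Zfp28 and Zfp106. Zfp941, a KRAB member of chromosome 7, had 36.9, 41.1 and 60.3 CPM (lowest, median, highest) in Ctr wt at P22 and 55.7, 60.8 and 65.8 at P66. In MS wt it went from 31.6, 39.6 and 44.0 to 46.2, 53.2 and 77.9, without overlap. In Ctr ko it went from 27.7, 39.6 and 48.0 to 49.2, 54.8 and 60.6, and in MS ko from 31.9, 35.6 and 55.7 to 42.3, 50.8 and 62.5. Its log2 change was 0.48 (SE 0.0531, adjusted p 1.05e-11 by edgeR). Zfp831, a protein with 2 matched fingers at the edge of the chromosome 2 cluster, rose from a median of 79.0 CPM (66.0 to 95.7) to 103 CPM (86.9 to 122), a log2 change of 0.40 (SE 0.0313, adjusted p 7.26e-18). Zfp28 rose from 28.5 CPM (24.01 to 32.7) to 34.96 CPM (29.6 to 39.6), by 0.27 on the log2 scale (SE 0.0258). Zfp106 rose from 519 CPM (444 to 572) to 585 CPM (504 to 653), by 0.18 (SE 0.0209). In the last 3 the ages overlap in part.

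**Figure D2:**
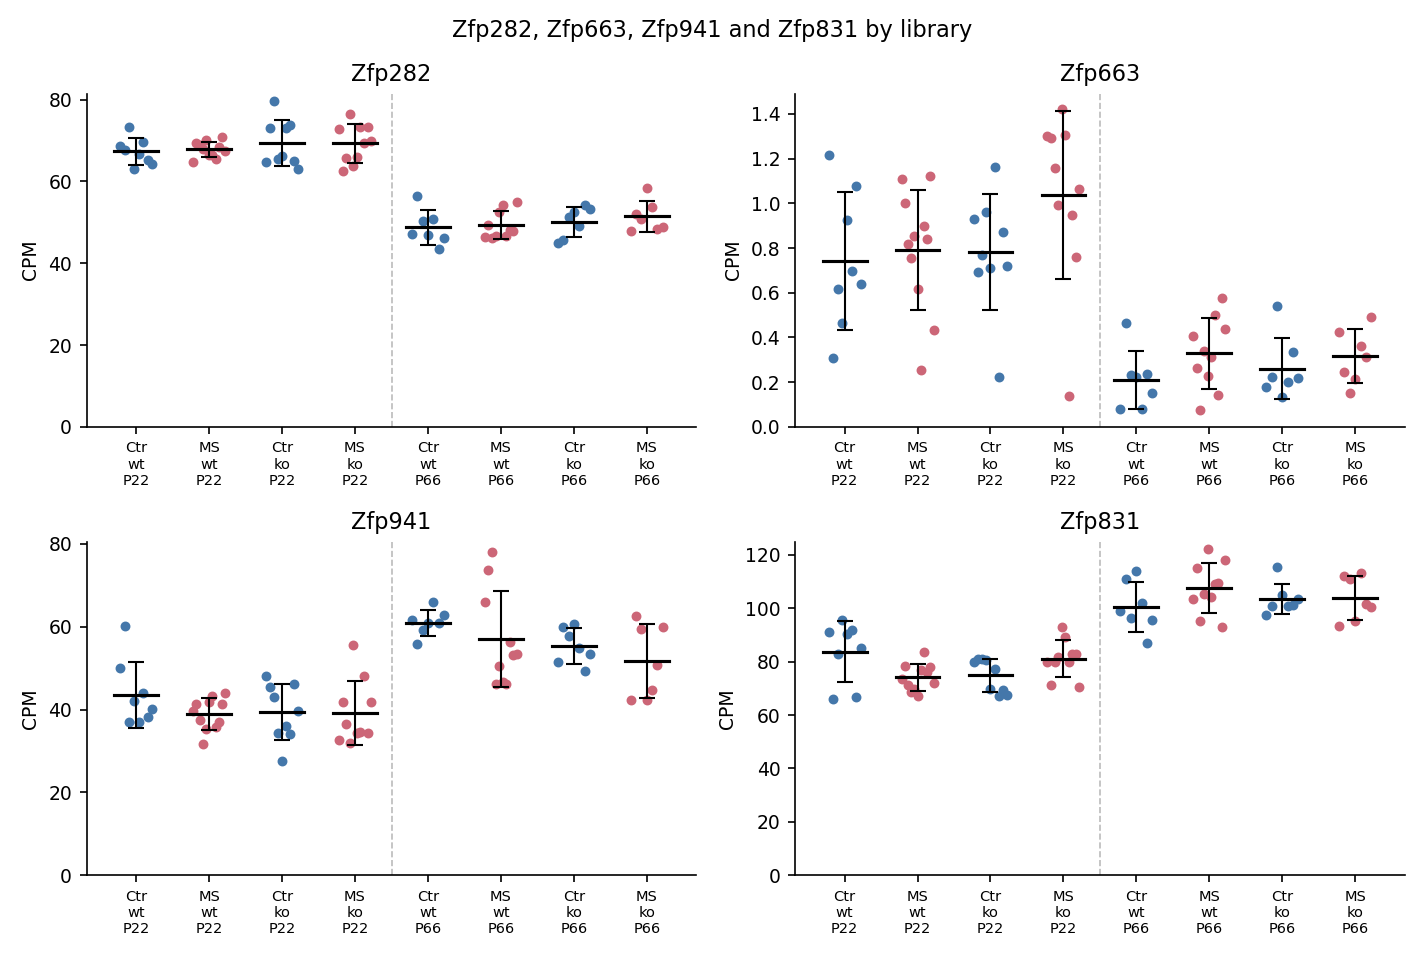
CPM of Zfp282, Zfp663, Zfp941 and Zfp831 (vertical axes, from 0) in the 8 groups (horizontal axes); each point is 1 library, blue for Ctr and red for MS, with the group mean and SD in black. The 31 P66 libraries lie below the 38 P22 libraries for Zfp282 without overlap, and mostly above them for Zfp831 and Zfp941.

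Among members with a mean of at least 1 CPM, the larger rises further included Zfp296 (log2 change 0.73), which is known from germ and stem cells, Zfp541 (0.41), known from meiosis, Zfp804b (0.31), Zfp937 (0.27) and Zfp473 (0.22). Zfp473 was near the threshold (adjusted p 0.0403 by edgeR). It passed in 46 of the 69 fits that left out 1 library and in neither cohort alone, with 0.32 in cohort 1 and 0.05 in cohort 2. Zfp296 was low, with a median of 0.988 CPM at P22 and 1.70 CPM at P66. At that level the larger falls outside the chromosome 4 cluster were Zfp282 and Zfp853 (-0.29, SE 0.0423). Of the 18 members in the table that were named for a known role, Zfp106, Zfp142 (0.08), Zfp382 (0.13) and Zfp462 (0.20), a chromatin protein of neural development, were higher. Zfp46 (-0.21), Zfp536 (-0.22), which restrains neuronal differentiation, Zfp36 (-0.13) and Zfp568 (-0.12), the repressor of a placental Igf2 promoter, were lower. The last 2 were near the threshold, with adjusted p 0.0445 and 0.0487 by edgeR, and passed in 42 and 33 of the 69 fits that left out 1 library. The other 10 did not pass: Zfp64 -0.05, Zfp110 0.05, Zfp281 0.02, Zfp292 0.10, Zfp326 -0.03, Zfp335 0.01, Zfp628 0.01, Zfp638 0.07, Zfp644 -0.02 and Zfp804a 0.08.

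Within single groups fewer members passed. In Ctr wt 14 did (7.37% of members, 18.9% of all genes), 8 higher and 6 lower, where 8.36% and 10.5% of all genes were. In MS wt 40 did (21.1% and 30.8%), 26 higher and 14 lower beside 14.5% and 16.4% of all genes. In Ctr ko 34 did (17.9% and 28.1%), 25 higher and 9 lower beside 13.3% and 14.9%. In MS ko 18 did (9.47% and 19.2%), 8 higher and 10 lower beside 8.16% and 11.1%. These 4 comparisons share no library. Of the 44 members higher on average, 36 were positive in all 4 groups, and of the 28 lower, 25 were negative in all 4. However, 15 and 12 of them passed in no single group. The average is made of these same 4 changes, so members that passed on it tend to agree in sign by selection. Their agreement is therefore no further evidence, and the share of all called genes with 4 like signs is not given here. The counts of members that passed in different groups were not tested against each other. The 9 myelin markers were all lower at P66, with a median log2 change of -1.38, and 4 of 4 markers of oligodendrocyte precursors and 4 of 4 of astrocytes were lower as well. Their part in the members' changes was not tested.

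By chromosome, 12 of 28 members on chromosome 4 were lower and 3 higher (median log2 change -0.17). On chromosome 2, 8 of 26 were higher and 1 lower (median 0.15). Chromosome 7 had 22 higher and 8 lower of 91 (median 0.04), chromosome 6 had 5 and 3 of 17, chromosome 5 had 3 and 2 of 18, chromosome 3 had 2 and 1 of 4, and chromosome 1 had 1 and 1 of 4. Neither member on chromosome 8 passed. Over all chromosomes 26.2% of all genes were higher and 25.8% lower, and shares of all genes on each chromosome are not given here.

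In the chromosome 4 cluster, 9 of 18 members were lower at P66 and 1 was higher, where 25.8% and 26.2% of all genes were. The lower ones were Zfp987 (-0.52), Zfp600 (-0.52), Zfp989 (-0.50), Zfp978 (-0.50), Zfp988 (-0.48), Zfp991 (-0.41), Zfp993 (-0.40), Zfp992 (-0.40) and Zfp981 (-0.10). All 9 lie in 1 run of the map. The higher one, Zfp933 (0.17), is the last gene of the cluster and shared 0.93% of its words with other genes. Over the cluster, 16 of 18 values were negative with a median of -0.34, and 12 were negative in all 4 groups. The medians were -0.42 in Ctr wt, -0.16 in MS wt, -0.23 in Ctr ko and -0.59 in MS ko. Within single groups, Zfp981 was lower in Ctr ko (-0.20) and Zfp933 higher in MS wt (0.36), both named after their values were seen, and no other member of the cluster passed in edgeR or DESeq2. Lower at an unadjusted p under 0.05 by both tools were 3 members in Ctr wt, 0 in MS wt, 1 in Ctr ko and 6 in MS ko. In either direction 17.4%, 28.9%, 31.1% and 18.9% of all members were at that p by edgeR. Shares of all genes at it within groups are not given here. In cohort 1 alone the cluster's median was -0.35, with 0 lower by edgeR and 4 at an unadjusted p under 0.05. In cohort 2 alone it was -0.23, with 2 lower by edgeR and 3 at an unadjusted p under 0.05. In either direction, 2870 of 7205 genes were at that p in cohort 1 and 3432 of 7237 in cohort 2.

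Levels in this cluster were low and variable. Zfp992 had 5.34, 14.1 and 20.2 CPM (lowest, median, highest) in Ctr wt at P22 and 4.64, 9.70 and 13.2 at P66. In MS ko it had 6.25, 11.6 and 22.0 at P22 and 2.28, 8.09 and 17.54 at P66. The ages overlap widely in both. Zfp600 had medians of 1.79 CPM in Ctr wt at P22 and 1.27 CPM at P66. Zfp981 was steadier, with medians of 245 CPM in Ctr wt at P22 (201 to 275) and 219 CPM at P66 (209 to 248).

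In the chromosome 2 cluster, 5 of 10 members were higher at P66 and none was lower, where 26.2% and 25.8% of all genes were. All 10 values were positive, with a median log2 change of 0.18. The 5 that passed were Zfp831, Zfp970 (0.23), Zfp972 (0.22), Zfp971 (0.22) and Zfp931 (0.14). The other 5, Zfp965 to Zfp969, had values of 0.15 to 0.18. They did not pass on average, and they are the ones that share most of their sequence. Zfp965, Zfp967, Zfp968 and Zfp969 shared 100% of their words with other genes and Zfp966 shared 89.3%. The values of these 5 therefore need not be separate measurements. Within MS wt all 5 passed, with values of 0.41 to 0.43, as did Zfp831 and Zfp931. Within Ctr ko Zfp831, Zfp970 and Zfp971 passed, and in Ctr wt and in MS ko Zfp831 did. By group the median was 0.01 in Ctr wt, 0.41 in MS wt, 0.29 in Ctr ko and 0.09 in MS ko. In Ctr wt 5 of the 10 values were negative. Zfp966 had 29.8, 35.4 and 47.6 CPM in Ctr wt at P22 and 21.1, 37.5 and 44.5 at P66, and in MS wt it had 23.6, 27.8 and 45.4 and then 27.6, 43.3 and 52.3. A fit without the library MS ko P66 C1-56 was added after seeing the data. That library was the lowest on this cluster, so leaving it out raises these values by selection. All 10 were then higher with a median of 0.21, and the count over all members rose from 72 to 86. In that fit 96 members and 4183 of 7155 genes had an unadjusted p under 0.05 by edgeR. The share of all genes called in it is not given here.

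**Figure D3:**
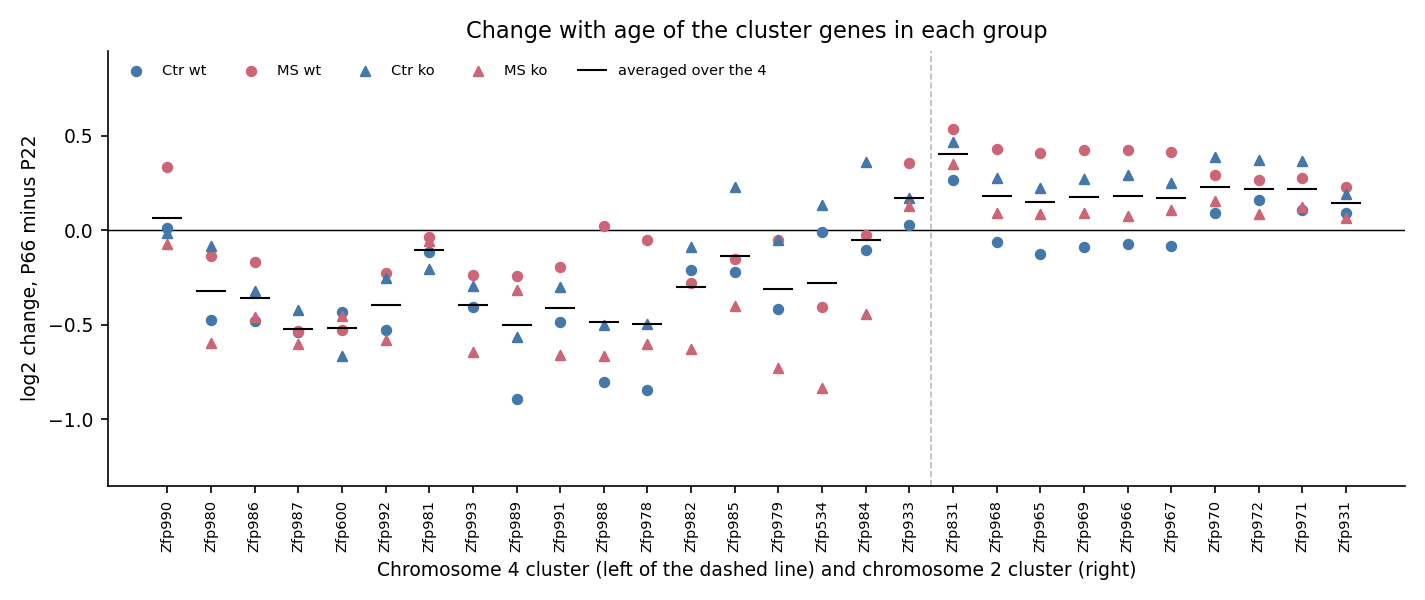
Log2 change from P22 to P66 (vertical axis) of the 18 genes of the chromosome 4 cluster and the 10 of the chromosome 2 cluster (horizontal axis, in map order), in Ctr wt, MS wt, Ctr ko and MS ko (points) and averaged over the 4 (short horizontal black marks). In the chromosome 4 cluster 12 genes are negative in all 4 groups; in the chromosome 2 cluster 5 genes are negative in Ctr wt and all 10 are positive in the other 3.

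The 2 clusters were also the most variable of the 11 clusters between mice of 1 group. The median SD of log2 CPM within groups was 0.61 in the chromosome 4 cluster and 0.35 in the chromosome 2 cluster, beside 0.15 for all members and 0.15 for all genes tested. Their genes moved together: the median correlation of within-group deviations over 69 libraries was 0.56 between genes of the chromosome 4 cluster and 0.89 in the chromosome 2 cluster. It was 0.59 in the chromosome 7 cluster of Zfp788, whose median SD was 0.23, and 0.04 between members outside these 3 clusters. Whether genes of 1 cluster shared reads cannot be told from the counts, and the part of shared reads in these correlations was not tested. Within groups, the mean of the chromosome 4 cluster and the library total had r = -0.13 (n = 69). The 2 clusters moved together as well, with r = 0.79 and rho = 0.78 between their means (n = 69, permutation within groups, two-sided, p 1e-05, adjusted p 1e-05 over 4 relations, the smallest that 100000 permutations can give). Without the 2 farthest libraries r was 0.77.

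This variation went along with the base composition of the libraries. A score was made for each library, the mean log2 CPM of the 689 non-member genes with the lowest GC content minus that of the 689 with the highest. Its within-group deviations correlated with the mean of the chromosome 4 cluster (r = 0.77, rho = 0.76), of the chromosome 2 cluster (r = 0.91, rho = 0.89) and of the other members (r = 0.78, rho = 0.74), each with n = 69 and permutation p 1e-05, adjusted p 1e-05. Without the 2 farthest libraries r was 0.73, 0.88 and 0.72. In cohort 1 r was 0.82, 0.92 and 0.83, and in cohort 2 it was 0.74, 0.89 and 0.73. The low-GC genes of the score had at most 41.9% GC. The median GC of the chromosome 4 cluster (36.1%) and of the chromosome 2 cluster (40.3%) lies in that range. These p-values therefore do not set the clusters apart from other genes of low GC, which were not compared. The library MS ko P66 C1-56 was lowest on the score (-0.90), on the chromosome 4 cluster (0.21) and on the chromosome 2 cluster (3.91, all on the log2 scale). The score was added after seeing the data. With it as a covariate 87 members passed for age (48 higher, 39 lower), 65 of them among the 72. The chromosome 4 cluster then had 15 lower with a median of -0.46, and the chromosome 2 cluster 4 higher with a median of 0.08. In that fit 99 members and 4379 of 7131 genes had an unadjusted p under 0.05 by edgeR. The share of all genes called in it is not given here, so these counts do not set the members apart from other genes.

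**Figure D4:**
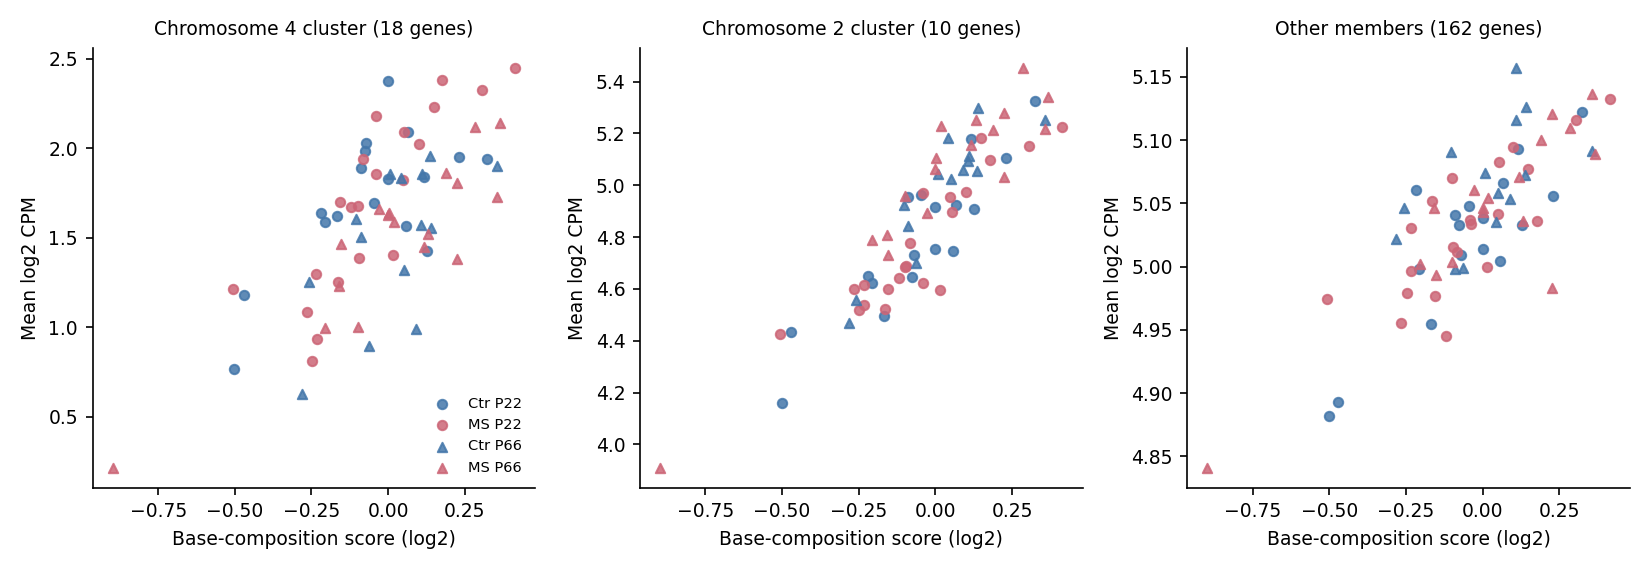
Mean log2 CPM of the chromosome 4 cluster, the chromosome 2 cluster and the other members (vertical axes, different ranges) against the base-composition score of the library (horizontal axes, log2); each point is 1 of 69 libraries, circles for P22, triangles for P66, blue for Ctr and red for MS. All 3 means rise with the score, and 1 library, MS ko P66 C1-56, lies at the lower left of each.

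With maternal separation, 2 members passed at P66, both lower: Zfp46 and Zfp956 (1.08% of 186 members tested, 0.371% of 7001 genes; 0.243% of genes were lower and 0.129% higher). Zfp46, a KRAB member with 12 fingers on chromosome 4 (136284683 to 136293942) outside the cluster, had 114, 124 and 145 CPM (lowest, median, highest) in Ctr wt and 84.7, 106 and 120 in MS wt. In Ctr ko it had 127, 136 and 179 CPM and in MS ko 103, 120 and 145. Separated mice were lower in both genotypes, with overlap: 16 of 17 were below the median of the control mice of their genotype. The log2 change was -0.30 (SE 0.0628, 17 separated and 14 control mice, adjusted p 0.0346 by edgeR). At P22 the medians were 138 in Ctr wt, 143 in MS wt, 141 in Ctr ko and 145 in MS ko, and the change was 0.04 (SE 0.0456).

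Zfp956, on chromosome 6 (47953390 to 47965300), had 71.7, 81.1 and 86.4 CPM in Ctr wt at P66 and 67.3, 72.0 and 75.8 in MS wt. In Ctr ko it had 81.4, 84.8 and 92.9 CPM and in MS ko 72.0, 76.7 and 83.7. All 17 separated mice were below the median of their controls, with some overlap of the ranges. The log2 change was -0.16 (SE 0.0299, adjusted p 0.0133 by edgeR), and at P22 it was 0.01 (SE 0.0351). Zfp956 lies in the chromosome 6 cluster with Zfp282, and of the 9 members there it alone passed with rearing. The next members by p were Zfp512b (-0.16, adjusted p 0.0735), Zfp566 (-0.17, 0.101) and Zfp865 (-0.09, 0.133), all by edgeR. In these, 15, 16 and 15 of the 17 separated mice were below the median of their controls. All these genes were ranked by the same P66 values, so such counts of mice describe them and are no further evidence.

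Both calls were small and close to the threshold. Zfp46 was -0.24 in cohort 1 (adjusted p 0.41) and -0.31 in cohort 2 (0.0883), and Zfp956 was -0.20 (0.0715) and -0.10 (0.521), all by edgeR. When each P66 library was left out in turn, Zfp956 passed in 30 of 31 fits and Zfp46 in 15, and the number of members called ran from 0, without Ctr wt C1-6, to 4, without Ctr ko C1-22. At P66 all 9 choroid plexus markers had a negative log2 change with separation (median -0.28), and none passed; their summed level was 121 to 584 CPM in controls and 107 to 768 CPM in separated mice. Without the libraries that stood apart on these markers Zfp46 was -0.27 and no longer passed (adjusted p 0.0917 by edgeR). With the choroid plexus score as a covariate, Zfp46 and Zfp956 both passed. The part of choroid plexus content in these values was not tested further.

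**Figure D5:**
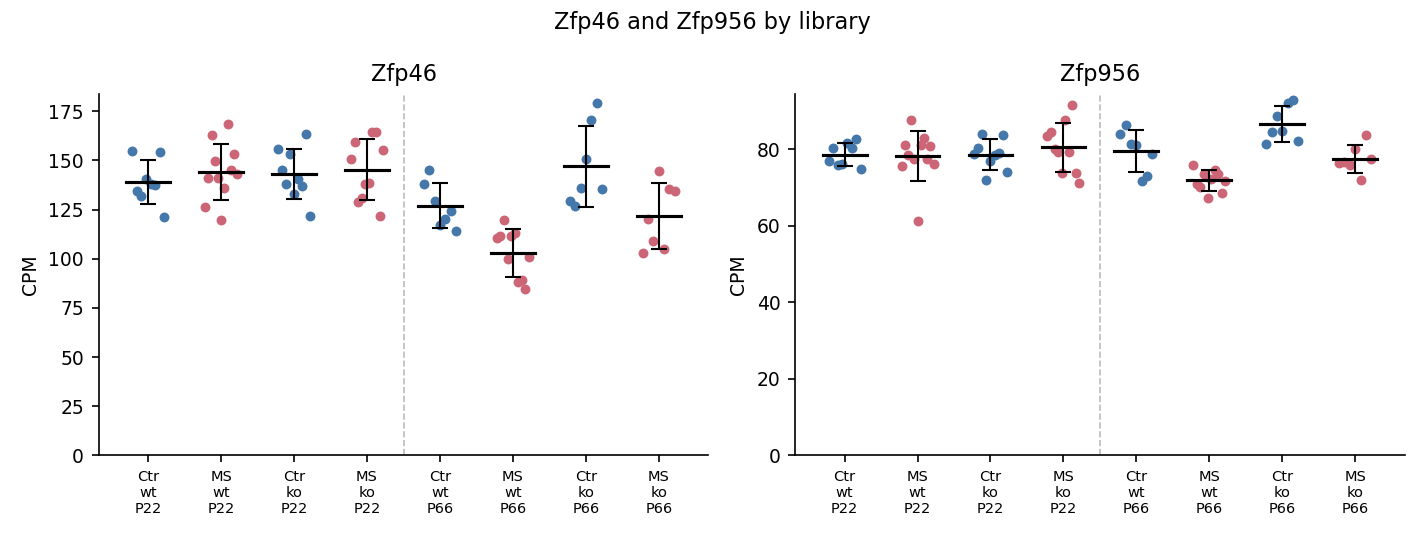
CPM of Zfp46 and Zfp956 (vertical axes, from 0) in the 8 groups (horizontal axes); each point is 1 library, blue for Ctr and red for MS, with the group mean and SD in black. At P66 the MS groups lie lower than the Ctr groups of the same genotype, by medians of 106 against 124 and 120 against 136 CPM for Zfp46, with overlap; at P22 they do not separate.

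The fall of Zfp46 with age was unequal between rearing groups in its values, -0.49 in MS wt and -0.27 in MS ko but -0.13 in Ctr wt and 0.04 in Ctr ko. The test of that difference gave -0.34 (SE 0.0764, adjusted p 0.0773 by edgeR), and for Zfp956 it gave -0.17 (SE 0.0457, adjusted p 0.233). No member passed in edgeR for age by rearing and 1, Zfp46, did in DESeq2 (adjusted p 0.0275), where 0.0421% of all genes did in edgeR, and 15 had an unadjusted p under 0.05 (7.89% of members, 6.73% of genes).

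With genotype, no member passed in edgeR. At P66 none of 186 passed in edgeR and 1, Zfp956, did in DESeq2 with an adjusted p of 0.0494 (0.0571% of genes did in edgeR), and 13 had an unadjusted p under 0.05 (6.99% of members, 8.36% of genes). The 2 smallest p-values belonged again to Zfp956 (0.11, SE 0.0292, adjusted p 0.288 by edgeR) and Zfp46 (0.22, SE 0.0609, adjusted p 0.308), here with higher values in the knockout. The Zfp46 value was -0.0084 in cohort 1 alone and 0.50 in cohort 2 alone, where it passed (adjusted p 0.00112 by edgeR). At P22 none of 190 passed in edgeR or in DESeq2 for genotype, rearing or their interaction (0% of genes in each), and 16, 3 and 10 members had an unadjusted p under 0.05 (8.42%, 1.58% and 5.26% of members; 4.11%, 3.08% and 8.47% of genes). For genotype at P22 the smallest p was that of Zfp628 (0.15, SE 0.0486, adjusted p 0.832).

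For the interaction at P22 the smallest were those of Zfp804b (0.72, SE 0.201, adjusted p 0.584) and Zfp831 (0.29, SE 0.0901, adjusted p 0.584), all by edgeR. Zfp804b had 4.84, 6.01 and 7.46 CPM in Ctr wt, 3.73, 4.54 and 8.82 in MS wt, 3.49, 4.03 and 6.13 in Ctr ko and 4.27, 5.43 and 8.96 in MS ko, with wide overlap. At P66 the interaction gave 0 called members in edgeR and in DESeq2 (0% of genes) and 9 with an unadjusted p under 0.05 (4.84% of members, 4.53% of genes). Age by genotype gave 0 in both tools and 3 at that p (0% of genes called; 1.58% of members and 2.15% of genes under 0.05).

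Age by genotype by rearing gave 0 called members in edgeR and in DESeq2 (0.014% of genes) and 27 with an unadjusted p under 0.05 (14.2% of members, 14% of genes). The members' values leaned one way: 140 of 190 were negative, with a median of -0.12 beside -0.0047 for all genes, and of -0.54 in each of the 2 clusters. With the base-composition score as a covariate the medians were -0.05 over all members, -0.01 in the chromosome 4 cluster and -0.16 in the chromosome 2 cluster. Under 0.05 were then 10 members and 514 of 7131 genes. Without MS ko P66 C1-56, 16 members and 660 of 7155 genes were. The score itself differed between groups, with means from -0.16 in Ctr ko P22 to 0.12 in MS wt P66. Its part and that of the groups cannot be told apart, and a cause was not tested.

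Genes around the members were described in the same way. Of the 41 listed partners of KRAB zinc finger proteins, 16 were in the table. With age 2 were higher, Hp1bp3 (0.13), a chromatin protein related to linker histones, and Rif1 (0.22), which acts in replication timing. Lower were 3, the DNA methyltransferase Dnmt3b (-0.20), the histone methyltransferase Ehmt1 (-0.09) and Setdb1 (-0.06). Trim28 was at 0.03 (SE 0.0248) and did not pass (adjusted p 0.353 by edgeR). The list's median was 0.003. None of the 16 passed with rearing at P66. Of zinc finger genes of other names, 6 of 19 Zbtb genes were higher with age and 5 lower (median 0.06), and of 12 Zscan and Zkscan genes 3 were higher and 3 lower (median 0.04), where 26.2% of all genes were higher and 25.8% lower.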

How the data were processed

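Total RNA of the hippocampus was sequenced from 69 mice in 8 groups, and groups were taken from the labels. The deposited values are raw read counts per gene, which the authors made; tools named in the submitters' processing notes are cutadapt 1.16, FastQC 0.11.4, limma 3.34.9 and edgeR. Which aligner, counting tool and strand setting were used is not given in the sources used here. Since the table as held stops on chromosome 8, its last, incomplete record was dropped. Totals of 11.3 to 16.4 M counts are sums over that part.

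Counts were fitted in R 4.3.3 with edgeR 4.0.16 (filterByExpr, minimum count 10 and minimum total 15; TMM; quasi-likelihood; terms for group and cohort). Age and its interactions used all libraries, and the other contrasts the libraries of 1 age, as the study's design text describes. P-values were adjusted over all genes tested. An SE is the log2 change divided by the square root of the F statistic. Log2 CPM used a prior count of 2. Alternatives were DESeq2 1.42.0, RLE scaling, other filters and thresholds, no cohort term, each cohort, choroid plexus terms and leaving out each library, and 2 were added after seeing the data: the base-composition covariate and the fit without MS ko P66 C1-56. The script was tested on simulated data. Within groups 272 library pairs were checked for duplicates, with a chi-square per degree of freedom of at least 4.60.

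Named members were, for age, the 10 largest rises and falls among called members whose mean log2 CPM was 0 or more. For other contrasts they were the called members or, where fewer than 5 passed, the 5 with the smallest p, and besides these members with known roles and the most and least abundant per length. Zfp966, the other genes of the 2 clusters and genes called in all 4 groups were named after their values were seen. Members and lists were chosen with earlier results of these data known. KRAB and C2H2 patterns were searched in translated GENCODE M21 transcripts; RefSeq promoters are of GRCm38.p6.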

Additional observations from a re-analysis of the deposited data

Results flagged for a closer look

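In 133 checks of 1 value in 1 group, 9 values, from 8 libraries, lay far from the rest of their group; chance flags about 1 in 20. For Zfp663, Ctr ko P22 C2-43 was lowest at 0.223 CPM (next 0.694), MS ko P22 C2-74 was lowest at 0.139 CPM (next 0.758) and Ctr wt P66 C1-58 was highest at 0.464 CPM (next 0.237). Zfp831 was highest in Ctr ko P66 C1-30, at 115 CPM (next 105). Zfp296 was highest in MS ko P22 C2-23, at 2.82 CPM (next 1.49). Zfp991 was highest in Ctr ko P66 C1-22, at 20.1 CPM (next 12.6). The library MS ko P66 C1-56 was lowest on the mean log2 CPM of the chromosome 2 cluster (3.91, next 4.79) and on the base-composition score (-0.898, next -0.206). The members' share of all counts was highest in Ctr wt P22 C1-56, at 1.00% (next 0.952%).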

How the results depend on the processing

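The count of members called with age was 72. It was 29 in cohort 1 alone and ran from 63 to 86 when each library was left out. In cohort 1 alone 46 members and 2870 of 7205 genes had an unadjusted p under 0.05 by edgeR. Within groups, cohort 1 alone and cohort 2 alone gave 2 and 5 members in Ctr wt, 15 and 19 in MS wt, 4 and 21 in Ctr ko and 5 and 6 in MS ko. Ctr ko gave 20 without the libraries far from the median choroid plexus score, and MS ko gave 32 with the base-composition score. For rearing at P66 the count of 2 became 0 in cohort 1 alone and 0 in cohort 2 alone, 1 without the libraries far on the choroid plexus score and 6 with the base-composition score; leaving out each library gave 0 to 4. Genotype at P66 gave 1 member with DESeq2 and 1 in cohort 2 alone, and age by genotype gave 1 in cohort 2 alone. Age by rearing gave 1 (Zfp46) at an adjusted p under 0.1, with DESeq2, with the base-composition score and without MS ko P66 C1-56. For rearing at P66, 21 members and 855 of 7001 genes had an unadjusted p under 0.05 by edgeR. With the base-composition score 35 and 1362 did. Shares of all genes called under these settings are not given here, so the counts do not set the members apart from other genes. A cohort alone has fewer samples. For the other settings the cause was not tested.

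Signs changed in 14 cases, over 12 values of single genes. With age in cohort 1 alone these were Zfp972 (-0.062), Zfp281 (-0.014), Zfp335 (-0.00072), Zfp628 (-0.033) and Zfp804a (-0.028), with the base-composition score Zfp281 (-0.040) and Zfp638 (-0.010), and for Zfp644 cohort 2 alone (0.059) and the fit without MS ko P66 C1-56 (0.0063). When each library was left out, Zfp628 also changed sign with age in 3 fits (lowest -0.0044). Zfp180 within MS ko was -0.058 in cohort 2 alone. Zfp46 was -0.0084 for genotype at P66 and -0.11 for age by genotype in cohort 1 alone, where Zfp956 was -0.025 for age by genotype; Zfp111 was -0.020 in cohort 2 alone. Zfp106, Zfp28, Zfp282, Zfp296, Zfp46, Zfp536, Zfp541, Zfp831, Zfp853 and Zfp941 passed for age under all 11 alternatives. No paired analysis was possible because the labels number animals anew in each cohort and rearing group, and equal numbers in 2 groups are different animals. Depth limits the weakest members: Zfp663 had a mean of 7.88 counts per library and Zfp985 of 5.96.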
